A study of Mus musculus with 7 samples.

Results

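Ribosome biogenesis and RNA polymerase I genes were described in RAW264.7 cells labelled Gfi1 knockout and in RAW264.7 cells labelled wild type. The genes were chosen by symbol alone: the Utp, Nop, Nol, Rrp and Polr1 families, Rrs1, Bop1, Pes1, Ncl, Npm1, Npm3, Fbl, Dkc1, Gar1, Nhp2, Imp3, Imp4, Gnl2, Gnl3, Wdr12, Wdr36, Wdr43 and Wdr75. Of 9999 genes with a named probe set, 56 matched. Npm3 was not among the 9999. The rule itself uses symbols and no measured value, but the list was proposed with earlier results of these data known.

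Ribosomes are assembled in the nucleolus. RNA polymerase I transcribes the long ribosomal RNA precursor, the small-subunit processome folds and cleaves its upstream part, and a separate set of factors matures the large subunit. Box C/D and box H/ACA particles add methyl groups and pseudouridines to the ribosomal RNA, and many genes of the pathway are known targets of Myc, which binds the E-box.

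RAW264.7 is a mouse macrophage-like line derived from a tumour induced by Abelson murine leukaemia virus. Gfi1 is a zinc-finger transcriptional repressor of blood cells. The knockout group held 4 arrays, whose titles read RAW GfI1-1, and the wild type group held 3 arrays, titled RAW WT. All 7 were labelled T0 and came from untreated cells of the same line. The labels do not say how the gene was edited or whether the knockout cells were 1 clone. The titles call the arrays biological replicates but do not mention separate cultures, so the p-values here reflect array-to-array spread that may be technical. The series description gives 7 samples but numbers both groups 1 to 3.

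Values are log2 of the deposited normalized intensity, and differences are knockout minus wild type on that scale. A gene was called higher or lower at an adjusted p under 0.05 in limma, a linear model fitted to all 9999 genes with Benjamini-Hochberg adjustment. The Gfi1 probe set read 4.93, 5.02, 3.97 and 3.97 in the arrays labelled knockout, against 2.66, 2.85 and 2.98 in the wild type arrays. It was higher, not lower, in every array labelled knockout (difference 1.65, SE 0.30, limma adjusted p = 0.00447). Its mean was low in both groups, at the 10.6th percentile of genes in knockout and the 2.59th in wild type. Dim signals cannot be told from background here. Where this probe set lies with respect to the edited part is unknown, so its signal does not check the labels, and every direction that follows rests on them. The 4 knockout arrays formed pairs. Over all probe sets, log2 differences between single arrays had an SD of 0.16 for replicates 1 and 2 and 0.14 for replicates 3 and 4, but 0.52 to 0.54 across these pairs, and 0.13 to 0.19 among the wild type arrays. Of 10 macrophage markers 7 were called lower in the knockout arrays, against 21.6% of all genes, and 0 were called higher, against 21.5%. Cd14 had a positive difference that was not called (0.29). The summed intensity of the 10 markers was 21378 to 22533 in the knockout arrays and 30411 to 30730 in the wild type arrays, and their part in the results was not tested. Of 24 markers of 5 other cell types, 0 were among the 9999 genes.

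The promoters of 4 of the genes are shown because they carry, or lack, the E-box that is known as a Myc binding sequence. Each is the RefSeq window of assembly GRCm38.p6 from 250 bases before to 50 bases after the annotated transcript start, read 5′ to 3′ on the gene's strand, with the E-box CACGTG in capitals. Nol11 lies at chr11:107189332-107189631 on the minus strand, Wdr43 at chr17:71615965-71616264 on the plus strand and Nop2 at chr6:125131633-125131932 on the plus strand. Nop14, at chr5:34660099-34660398 on the minus strand, has no E-box in this window.
Nol11: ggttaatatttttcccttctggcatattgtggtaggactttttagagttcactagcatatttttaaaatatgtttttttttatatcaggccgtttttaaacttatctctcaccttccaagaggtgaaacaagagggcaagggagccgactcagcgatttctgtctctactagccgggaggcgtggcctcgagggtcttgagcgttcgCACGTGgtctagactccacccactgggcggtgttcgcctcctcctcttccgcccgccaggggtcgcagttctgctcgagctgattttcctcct
Wdr43: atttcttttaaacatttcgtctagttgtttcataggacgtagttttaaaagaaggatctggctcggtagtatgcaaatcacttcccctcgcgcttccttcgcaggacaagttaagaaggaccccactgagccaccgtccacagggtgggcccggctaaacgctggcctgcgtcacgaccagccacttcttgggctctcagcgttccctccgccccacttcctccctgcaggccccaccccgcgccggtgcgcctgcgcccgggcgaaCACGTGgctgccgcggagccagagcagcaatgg
Nop2: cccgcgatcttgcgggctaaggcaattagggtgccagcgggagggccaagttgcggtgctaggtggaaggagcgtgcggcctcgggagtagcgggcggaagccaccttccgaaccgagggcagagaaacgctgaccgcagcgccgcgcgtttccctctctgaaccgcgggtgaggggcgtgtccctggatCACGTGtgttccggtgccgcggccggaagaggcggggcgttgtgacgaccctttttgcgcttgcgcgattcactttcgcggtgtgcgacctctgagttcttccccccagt
Nop14: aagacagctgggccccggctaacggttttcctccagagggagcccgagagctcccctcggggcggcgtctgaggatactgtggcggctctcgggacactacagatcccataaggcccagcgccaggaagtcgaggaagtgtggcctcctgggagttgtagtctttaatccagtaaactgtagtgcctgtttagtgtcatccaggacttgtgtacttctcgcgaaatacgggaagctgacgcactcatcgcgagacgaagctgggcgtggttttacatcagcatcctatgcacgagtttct

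Nol11, Wdr43 and Nop14 rose in the knockout arrays and Nop2 fell, as given with their values further on. The E-box centre lay 40 bases before the start in Nol11, 57 bases before it in Nop2 and 20 bases after it in Wdr43. A RefSeq window was matched for 44 of the 56 genes, and both strands were searched. The E-box, which reads the same on both strands, was in 11 of the 44 (25%), against 12.1% of the 8208 measured genes with a window. It was in 3 of 13 genes called higher (23.1%, Nol11, Utp4 and Wdr43), in 1 of 2 called lower (Nop2) and in 7 of 29 that were not called (24.1%). Those 7 were Imp4, Pes1, Rrp7a, Utp14b, Utp18, Utp20 and Utp25.

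Among the 56 genes, 20 were higher and 2 were lower in the knockout arrays, and 34 did not pass the test. The knockout arrays formed pairs. With each pair as a random block, and the wild type arrays together as another, 4 genes were called higher and 0 lower. They were 2 of the small subunit, 2 of the large subunit and 0 of RNA polymerase I, while 4.48% of all genes were called higher. With each pair averaged instead, 16 genes were called higher and 1 lower, while 14.6% of all genes were called higher. The calls given from here on treat the 4 knockout arrays as independent. With them so treated, the share called higher was 35.7%, against 21.5% of all 9999 genes. The share called lower was 3.57%, against 21.6% of all genes. In either direction together 39.3% of the family was called, against 43.1% of all genes. The median difference over the 56 genes was 0.17, and over all genes it was -0.01. Of the 34 genes that did not pass, 24 had a positive difference and 10 a negative one. Among all genes 5694 did not pass, 2785 of them positive and 2909 negative. The sizes were mostly small, and by the probe set used for each gene only Rrp1b differed by 2-fold or more. RNA was taken from whole cultures, so fewer cells of a type and less RNA per cell cannot be told apart.

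All 4 knockout arrays lay above all 3 wild type arrays for 26 of the 56 genes (46.4%), which was the case for 26.5% of all genes. All 4 lay below for Nol4l, Nop2 and Rrp36 (5.36%), against 27.9% of all genes, and the arrays overlapped for the other 27. The median of the family, relative to the wild type mean of each gene, was 0.16, 0.12, 0.17 and 0.15 in the knockout arrays and 0.05, -0.02 and -0.03 in the wild type arrays. The heat map of the genes by array shows this as a block of small-subunit and large-subunit genes that were high across the knockout columns.

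**Figure D1:**
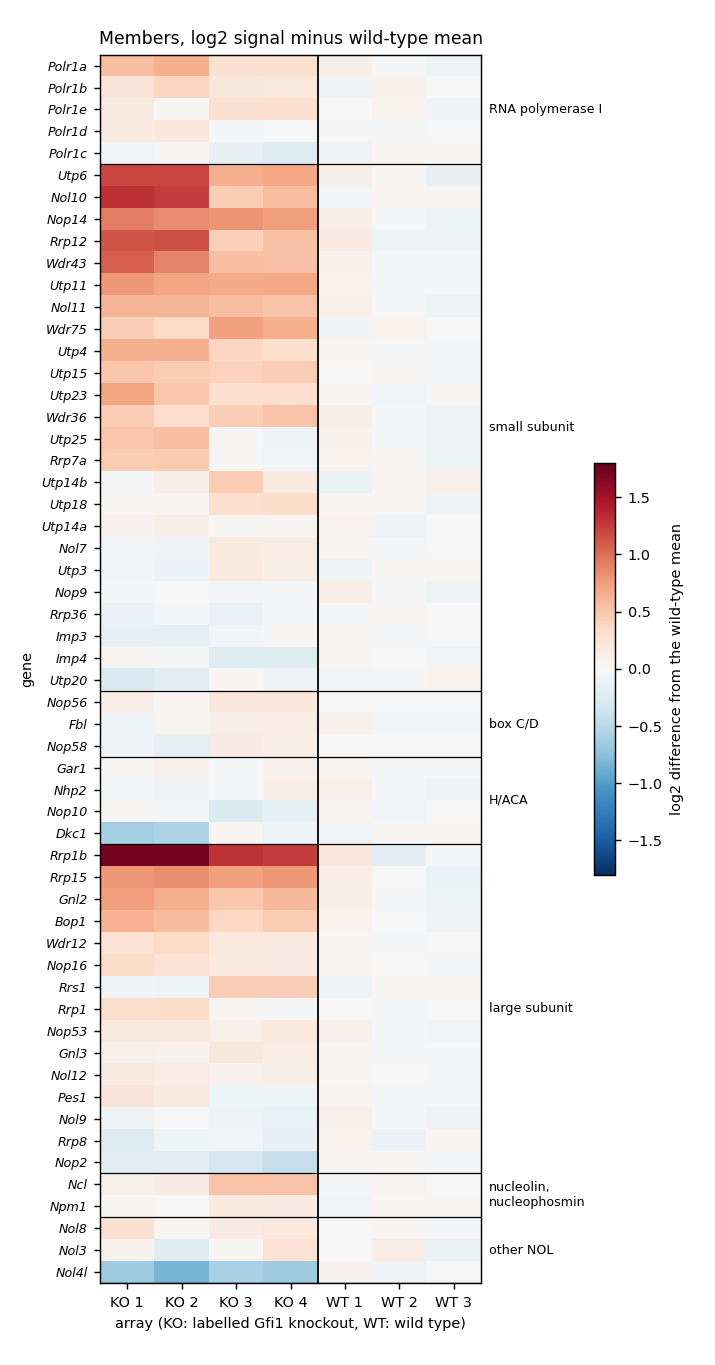
Each row is 1 of the 56 genes, grouped by role, and each column is 1 array, with the knockout arrays left of the wild type arrays. Colour is the log2 signal minus the gene's wild type mean; Rrp1b is high and Nol4l low in all 4 knockout columns, and several rows differ between knockout replicates 1 and 2 and replicates 3 and 4.

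Of the 5 RNA polymerase I subunits matched by symbol, 2 rose (40%, against 21.5% of all genes), 0 fell and 3 did not pass. The median difference was 0.19, and with so few genes the count is given as a description. Polr1a, the largest catalytic subunit, read 6.83, 6.91, 6.54 and 6.55 in the knockout arrays, against 6.38, 6.24 and 6.19 in the wild type arrays. The lowest knockout array was above the highest wild type array (difference 0.44, SE 0.11, limma adjusted p = 0.0185). Both other Polr1a probe sets had positive differences that did not pass (0.37 and 0.21). Polr1b, which forms the active centre together with Polr1a, read 5.76, 5.92, 5.74 and 5.71 in the knockout arrays and 5.45, 5.60 and 5.52 in the wild type arrays. It was higher by a smaller margin, again without overlap (0.26, SE 0.08, adjusted p = 0.0294). Both genes were dim, Polr1a at the 31.5th and Polr1b at the 20.5th percentile of wild type signal. Neither was in the fit with dim genes left out, and neither was called with each knockout pair averaged. Polr1b was also not called with array weights or with replicate number as a block. Polr1d, a subunit shared with RNA polymerase III, had 11.28, 11.32, 11.07 and 11.12 in the knockout arrays and 11.14, 11.10 and 11.11 in the wild type arrays. Knockout replicates 1 and 2 were above the wild type range and replicate 3 below it, and the difference of 0.08 did not pass (adjusted p = 0.436). Polr1e (0.19, adjusted p = 0.0984) and Polr1c (-0.10) did not pass either. The array design lists 3 further subunits under older symbols, which were looked up after the other values had been seen: Twistnb (0.22, adjusted p = 0.138), Znrd1 (0.09) and Cd3eap (0.05), none of which passed.

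The initiation factors that bring polymerase I to the ribosomal DNA promoter gave calls in both directions. Of 7 listed, 6 were measured, 2 were called higher (33.3%) and 1 lower (16.7%), shares not far from the 21.5% and 21.6% of all genes, so the counts are given as a description. Rrn3, which links the polymerase to the promoter, read 7.61, 7.71, 7.75 and 7.70 in the knockout arrays and 7.37, 7.33 and 7.35 in the wild type arrays (0.34, SE 0.06, adjusted p = 0.00398). Taf1b, a subunit of the promoter selectivity factor, was called too (0.31, adjusted p = 0.00541). Ubtf, the upstream binding factor, went the other way. Its signal was 7.65, 7.65, 7.80 and 7.71 in the knockout arrays, against 8.25, 8.11 and 8.06 in the wild type arrays (difference -0.44, SE 0.07, adjusted p = 0.00317).

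The small-subunit class held 12 of the 22 calls. Of 24 small-subunit genes, 12 rose (50%, against 21.5% of all genes), 0 fell and 12 did not pass. The median difference was 0.34 and the range -0.12 to 0.94. Utp6, a member of the UTP-B complex, had signals of 8.07, 8.07, 7.53 and 7.56 in the knockout arrays and 6.98, 6.89 and 6.74 in the wild type arrays. The groups did not overlap, with knockout replicates 1 and 2 about 0.5 above replicates 3 and 4 (difference 0.94, SE 0.17, limma adjusted p = 0.00405). Nol10, counterpart of the yeast processome factor Enp2, showed the same split, at 6.93, 6.87, 6.07 and 6.18 in the knockout arrays and 5.57, 5.66 and 5.63 in the wild type arrays (0.89, SE 0.23, adjusted p = 0.0178). Nop14, an assembly factor of the small subunit, gave 8.03, 7.96, 7.91 and 7.85 in the knockout arrays and 7.23, 7.07 and 7.02 in the wild type arrays. Here the 4 knockout arrays were close together and far from the wild type ones (0.83, SE 0.08, adjusted p = 0.000263).

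Among the other called small-subunit genes, Rrp12, needed in yeast for export of pre-ribosomes, differed by 0.81 (adjusted p = 0.0176), and its knockout replicates 1 and 2 (7.29 and 7.33) stood above replicates 3 and 4 (6.59 and 6.69). Rrp12 and Nol10 were dim, at the 29.6th and 21.5th percentile of wild type signal. Both were outside the fit with dim genes left out. Neither was called in an unmoderated test (adjusted p = 0.0521 and 0.0534) or without wild type replicate 2 or 3. Utp11, which associates with the U3 particle, was even across the knockout arrays, at 10.63, 10.57, 10.54 and 10.55, against 9.91, 9.83 and 9.83 in the wild type arrays. Its adjusted p was the lowest of the 56 genes (difference 0.72, SE 0.06, adjusted p = 0.000163). Utp23, a factor with a PIN-like nuclease fold, differed by 0.45 (adjusted p = 0.0141). The remaining called genes belong to the UTP-A and UTP-B complexes.

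UTP-A, the complex that binds the precursor first, and UTP-B, which joins next, were tallied with their subunits outside the name pattern, a grouping made after the values had been seen. Of 6 UTP-A genes, 5 were called higher, against 21.5% of all genes: Wdr43 (0.76), Nol11 (0.58), Wdr75 (0.55), Utp4 (0.50) and Utp15 (0.46). The remaining one, Heatr1, had 0.19 (adjusted p = 0.0613). Wdr43 read 10.05, 9.87, 9.52 and 9.50 in the knockout arrays and 9.05, 8.94 and 8.94 in the wild type arrays. Wdr75 had the opposite pair order, at 8.74, 8.65, 9.03 and 8.94 in the knockout arrays, against 8.22, 8.36 and 8.29 in the wild type arrays. UTP-B was mixed: Utp6 (0.94), Tbl3 (0.59) and Wdr36 (0.43) were called higher, Wdr3 was called lower (-0.45), and Utp18 (0.17) and Pwp2 (-0.03) did not pass. None of the 3 genes of the MPP10 complex, which accompanies the U3 RNA, passed: Imp3 differed by -0.09, Imp4 by -0.10 and Mphosph10 by 0.18. A dimmer probe set of Imp4 was called lower (-0.70, adjusted p = 0.00311), and Imp4 was also called lower with its probe sets averaged. Imp3 read 10.67, 10.65, 10.77 and 10.84 in the knockout arrays and 10.87, 10.78 and 10.81 in the wild type arrays, so the groups overlapped.

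**Figure D2:**
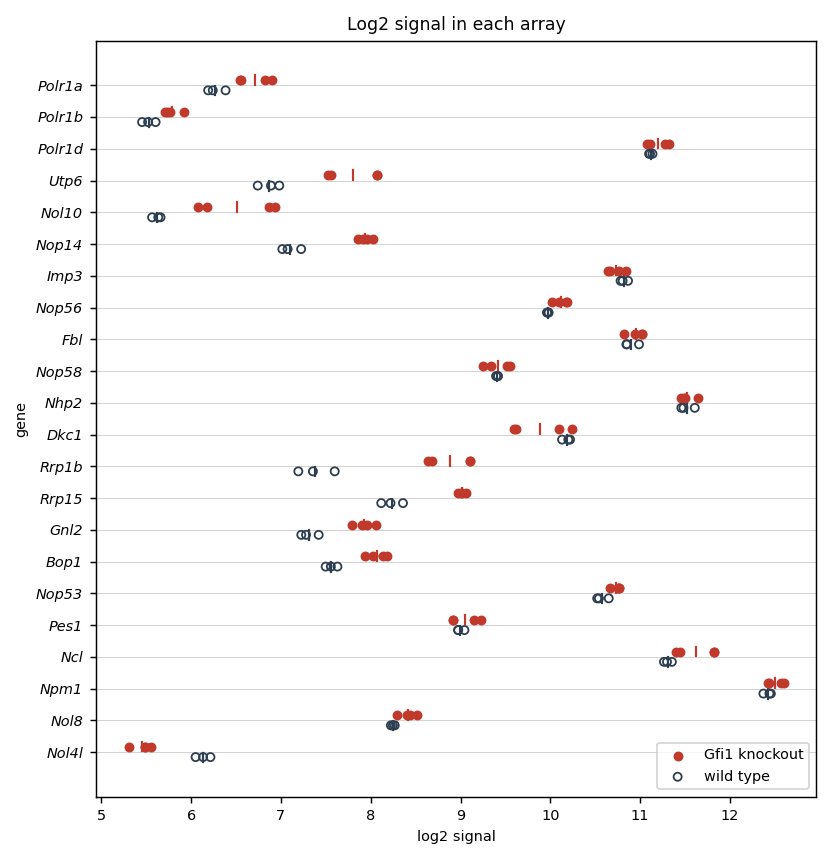
Log2 signal (x axis) in single arrays for 22 genes (y axis), with the 4 knockout arrays as filled points above the 3 wild type arrays as open points and a bar at each group mean. The knockout points of Nop14 and Rrp15 lie close together and to the right of the wild type points, whereas those of Utp6 and Nol10 fall into pairs and those of Dkc1 reach into the wild type range.

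The RNA modification particles gave 0 calls among 7 genes in either direction by the probe set used for each gene. Among their other probe sets, 1 of Nop56 was called higher (0.24, adjusted p = 0.0372) and 1 of Nop10 was called lower (-0.26, adjusted p = 0.0219). Of the box C/D core, Nop56 had 10.10, 10.01, 10.18 and 10.18 in the knockout arrays and 9.98, 9.97 and 9.96 in the wild type arrays. All knockout arrays were higher, but the difference was small and did not pass (0.15, adjusted p = 0.106). The methyltransferase fibrillarin, Fbl, differed by 0.06 (95% interval -0.12 to 0.24) and Nop58 by 0.01 (-0.20 to 0.21). Of the box H/ACA core, Dkc1, the pseudouridine synthase dyskerin, read 9.59, 9.62, 10.24 and 10.09 in the knockout arrays and 10.13, 10.20 and 10.22 in the wild type arrays. Only knockout replicates 1 and 2 were clearly below the wild type arrays, and the difference of -0.30 did not pass (adjusted p = 0.196, 95% interval -0.70 to 0.10). Nhp2 (0.00), Gar1 (0.04) and Nop10 (-0.11) were close to 0.

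**Figure D3:**
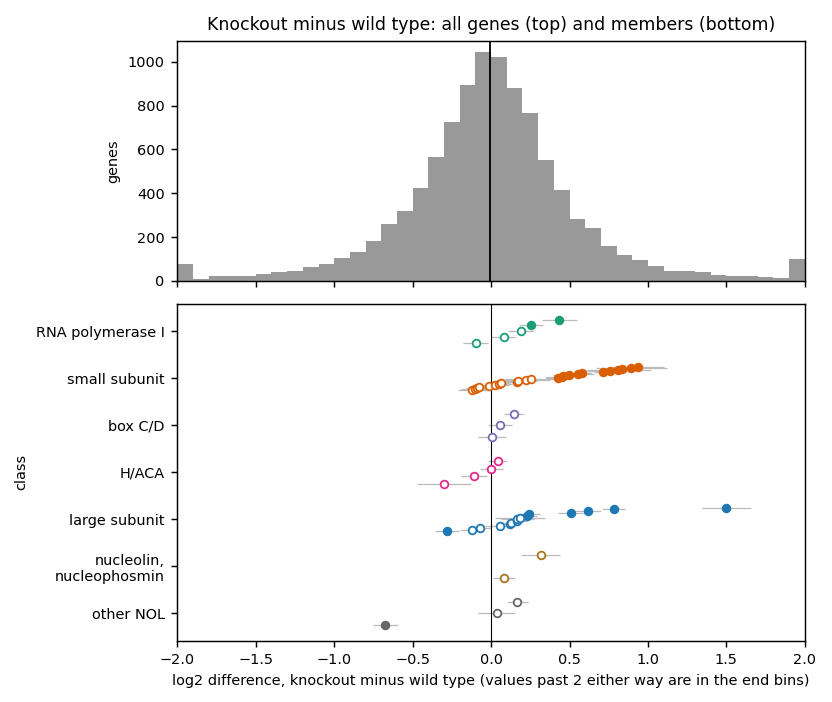
The upper panel is a histogram of the log2 difference, knockout minus wild type, over all 9999 genes, with a line at the median and values past 2 in either direction in the end bins. The lower panel shows the 56 genes by role on the same axis, with bars of 1 SE and filled points for genes past the adjusted p threshold: the filled points of the small-subunit class all lie above 0, Nop2 and Nol4l are the filled points below 0, and the box C/D and box H/ACA classes have none.

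Of 15 large-subunit genes, 6 rose (40%, against 21.5% of all genes), 1 fell and 8 did not pass. The median was 0.17 and the range -0.28 to 1.50. Rrp1b, a nucleolar protein related to yeast Rrp1 that binds protein phosphatase 1, read 9.10, 9.11, 8.68 and 8.64 in the knockout arrays, against 7.60, 7.19 and 7.36 in the wild type arrays. Every knockout array was more than 1 log2 unit above every wild type array, a 2.83-fold difference (1.50, SE 0.16, limma adjusted p = 0.000478). This probe set was the brightest over all 7 arrays through its knockout signal. In the wild type arrays it was the dimmest of 3 (7.38, against 7.58 and 7.53). The other 2 differed by 0.86 and -0.38, and the latter did not pass. Rrp1, a close relative of Rrp1b, did not pass (0.17). Rrp15, a pre-ribosomal factor of the large subunit, had 9.01, 9.07, 8.97 and 9.01 in the knockout arrays and 8.36, 8.22 and 8.12 in the wild type arrays. The knockout arrays spanned a narrow range well above the wild type ones (0.78, SE 0.07, adjusted p = 0.000279). Gnl2, a GTPase of late large-subunit assembly, gave 8.06, 7.96, 7.79 and 7.90 in the knockout arrays and 7.42, 7.28 and 7.23 in the wild type arrays (0.62, SE 0.09, adjusted p = 0.00145).

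The PeBoW complex, made of Pes1, Bop1 and Wdr12 and required for large-subunit maturation, was split. Bop1 read 8.18, 8.14, 7.94 and 8.02 in the knockout arrays and 7.63, 7.56 and 7.50 in the wild type arrays, without overlap (0.51, SE 0.08, adjusted p = 0.00238). Wdr12 was called higher by its brighter probe set (0.24, adjusted p = 0.0254), but with both probe sets averaged it was called lower (-0.25, adjusted p = 0.0160), so its direction is not settled. Pes1 read 9.23, 9.15, 8.92 and 8.92 in the knockout arrays and 9.04, 8.97 and 8.97 in the wild type arrays, with knockout replicates 1 and 2 above and replicates 3 and 4 below all wild type arrays (0.06, 95% interval -0.17 to 0.28). Nop16, a late assembly factor, was called (0.23, adjusted p = 0.0286). Nop2, a methyltransferase of the large ribosomal RNA, was the only called large-subunit gene that fell. Its signal was 8.44, 8.41, 8.31 and 8.20 in the knockout arrays, all below the 8.64, 8.64 and 8.58 of the wild type arrays (-0.28, SE 0.08, adjusted p = 0.0216). Nop2 was not called with any single wild type array left out or with each knockout pair averaged. Nor was it called by limma with replicate number as a block (adjusted p = 0.0810). The same settings also lost the calls of Nop16 and Wdr12. Nop53, which in yeast recruits the RNA exosome to the precursor, read 10.76, 10.76, 10.66 and 10.76 in the knockout arrays and 10.65, 10.54 and 10.52 in the wild type arrays, and did not pass (0.17, adjusted p = 0.0699).

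Of the abundant nucleolar chaperones, neither passed. Nucleolin, Ncl, had 11.40, 11.45, 11.82 and 11.82 in the knockout arrays and 11.27, 11.35 and 11.30 in the wild type arrays. All knockout arrays were higher, replicates 3 and 4 by the most (0.32, adjusted p = 0.0805, 95% interval 0.02 to 0.61). Nucleophosmin, Npm1, read 12.44, 12.42, 12.60 and 12.57 in the knockout arrays and 12.37, 12.46 and 12.44 in the wild type arrays, which overlapped (0.08, adjusted p = 0.366). The name pattern also drew in 3 genes that were kept apart from the assembly classes. Nol4l read 5.49, 5.30, 5.55 and 5.49 in the knockout arrays, against 6.21, 6.05 and 6.13 in the wild type arrays, and was lower in every knockout array (-0.68, SE 0.08, adjusted p = 0.000753). It was dim, at the 29.1st percentile of wild type signal, and outside the fit with dim genes left out. Nol8 had 8.52, 8.30, 8.40 and 8.44 in the knockout arrays and 8.25, 8.27 and 8.22 in the wild type arrays, but did not pass (0.17, adjusted p = 0.0876). Nol3, an inhibitor of apoptosis also called ARC, differed by 0.03.

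The pairs of knockout arrays bore on how large many of these differences were. With replicates 1 and 2 set apart from replicates 3 and 4, 33 of the 56 genes were above the wild type mean in both pairs, 11 were below it in both, and 12 had opposite signs. The difference between the pairs reached 0.3 for 12 genes. These counts were not made over all genes and only describe the family. Pairs on opposite sides of the whole wild type range were counted for all genes too. Replicates 1 and 2 lay above it and replicates 3 and 4 below for 1 gene (1.79%, against 4.37% of all genes). The reverse held for 3 genes (5.36%, against 4.28%). Nol10 differed from wild type by 1.28 in replicates 1 and 2 and by 0.51 in replicates 3 and 4, and Rrp12 by 1.15 and 0.47. Utp25 and Rrp7a were high in replicates 1 and 2 alone, at 0.52 and 0.47, against -0.02 for each in replicates 3 and 4. Rrs1, which in yeast brings the small RNA of the large subunit into the precursor, was high in replicates 3 and 4 alone (10.15 and 10.15, against 9.65 and 9.61 in replicates 1 and 2 and 9.65, 9.72 and 9.75 in the wild type arrays). The median absolute difference between the pairs was 0.178 for the family and 0.226 for all genes.

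**Figure D4:**
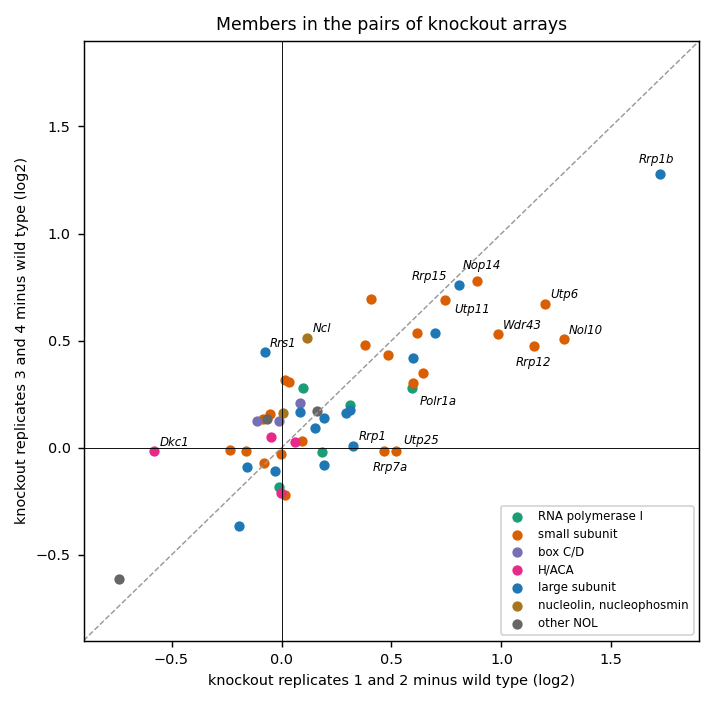
Each point is 1 of the 56 genes, with the log2 difference from wild type in knockout replicates 1 and 2 on the x axis and in replicates 3 and 4 on the y axis, coloured by role. The dashed line marks equal differences; Rrp15, Nop14 and Utp11 lie near it, whereas Nol10, Rrp12, Utp25 and Rrp7a lie to its right and Rrs1, Ncl and Dkc1 above it.

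Each knockout pair was treated as a random block, and the wild type arrays together as another, with a within-block correlation of 0.794. In that fit 4 of the 56 genes were still called. They were Rrp1b (adjusted p = 0.0227), Utp11 (0.0242), Nop14 (0.0360) and Rrp15 (0.0493), all higher, while 4.48% of all genes were called higher in that fit. Utp6 came next, at an adjusted p of 0.0546. The labels name no pairs, so this fit was added after the arrays had been compared. Leaving out wild type replicate 2 also reduced the calls, to 13 higher and 1 lower.

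Several genes had more than 1 probe set, and these did not always move together. The 56 genes had 51 further probe sets, of which 32 had the sign of the one used. Of the 51, 7 were called higher and 8 lower, so the excess of higher calls was not seen in them. Those called lower included 1 of Nol7 (-0.78) and 1 of Utp25 (-0.43). Among single probe sets of all named genes 19.6% were called higher. Of the 20 genes called higher, 7 had 1 probe set. The other 13 had 21 further probe sets, of which 12 were above 0, 5 were called higher and 3 were called lower. Rrp1b had a further probe set that rose by 0.86 (adjusted p = 0.000628) and another at -0.38 that did not pass (adjusted p = 0.157). Nol11 had a dim further probe set called higher (0.32, adjusted p = 0.0456) and a brighter one at 0.03 that did not pass (adjusted p = 0.705). Gnl2 (0.75), Wdr36 (0.42), Utp6 (0.24) and Nol11 each had a further probe set called higher, so these genes rested on more than 1 measurement. Wdr12 did not: its dimmer probe set read 5.02, 4.66, 5.06 and 4.99 in the knockout arrays and 5.78, 5.61 and 5.62 in the wild type arrays (-0.74, adjusted p = 0.00264). Nop16 (-0.54) and Utp23 (-0.37) likewise had a probe set called lower, and Wdr43 and Utp11 had one near 0 (-0.00 and -0.02). Utp15 had one at -0.13 that did not pass (adjusted p = 0.124), Wdr75 had a dim one at -0.07, and 1 of the 2 further ones of Utp6 was at -0.00. In the wild type arrays those of Utp15 (7.23) and Utp6 (7.09) were brighter than the probe sets used (7.11 and 6.87). The latter were thus chosen through their knockout signal, like that of Rrp1b. For nucleolin 3 probe sets were positive, 1 of them called (0.35, adjusted p = 0.0364), and the fourth read 7.10, 6.80, 7.66 and 7.74 in the knockout arrays, against 8.54, 8.43 and 8.41 in the wild type arrays (-1.14, adjusted p = 0.00808). The calls for Wdr12, Nop16, Utp23, Wdr43, Utp11, Utp15 and Wdr75 therefore depend on which probe set stands for the gene. So does that for Polr1a, whose further probe sets were positive but did not pass. Those for Rrp1b, Gnl2, Utp6 and Nol11 depend on it in part, since each had a further probe set called higher and another that was not called.

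**Figure D5:**
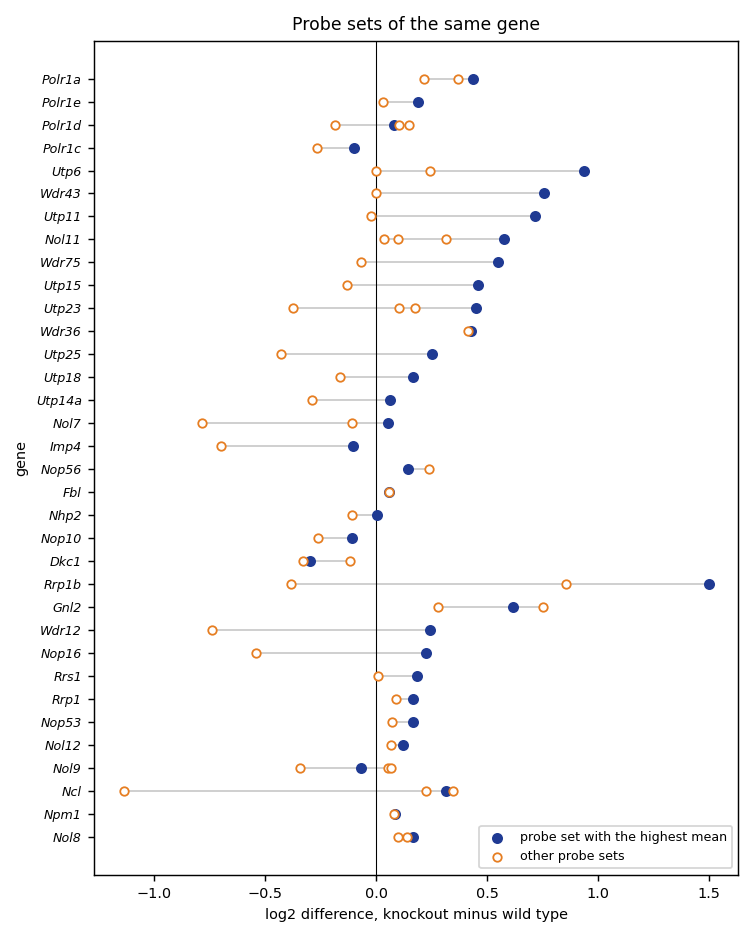
Log2 difference, knockout minus wild type, of every probe set of the genes with more than 1 (y axis), with the probe set used as a filled point and the others as open points. The probe sets of Gnl2 and Wdr36 lie on 1 side of 0, whereas those of Wdr12, Nop16, Utp23 and Ncl lie on both sides.

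Ribosome biogenesis genes outside the name pattern were tallied from 5 lists, with 80 of 88 genes measured. Of these 32 were called higher (40%, against 21.5% of all genes), 2 lower (2.50%, against 21.6%) and 46 did not pass, and the median was 0.21. Besides the initiation factors, 11 of 24 small-subunit factors (45.8%) rose and 1 fell. Riok2, a kinase of late small-subunit maturation, read 6.75, 6.68, 6.30 and 6.55 in the knockout arrays and 6.00, 5.78 and 5.86 in the wild type arrays (0.69, SE 0.12, adjusted p = 0.0036). The small-subunit factor that fell was Wdr3, at 9.05, 9.07, 9.22 and 9.16 in the knockout arrays and 9.54, 9.59 and 9.59 in the wild type arrays (adjusted p = 0.00171). Of 34 large-subunit factors, 10 rose (29.4%, not far above the share of all genes) and 0 fell. Sdad1, counterpart of the yeast assembly factor Sda1, had the largest difference, with 9.59, 9.48, 9.02 and 8.995 in the knockout arrays and 7.92, 7.95 and 7.92 in the wild type arrays (1.34, SE 0.16, adjusted p = 0.000768). All 3 nucleolar scaffold or accessory genes rose: Tcof1, or treacle (0.57), Nolc1, or Nopp140 (0.31), and the RNA acetyltransferase Nat10 (0.23). Of 13 RNA exosome genes, which trim the precursor's ends, 6 rose (46.2%) and 0 fell, led by Mphosph6 (0.60, SE 0.10, adjusted p = 0.00347).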

How the data were processed

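RNA from 7 arrays was analysed, 4 labelled Gfi1 knockout and 3 labelled wild type; groups and replicate numbers came from the titles. The authors deposited normalized intensity per probe set, made with RMA per the submitters' processing notes, which give no version. These values were linear (1.53 to 13507.5) and were converted to log2. Precision is set by the number of arrays, since arrays have no read depth. Of 19431 probe sets, 17335 had 1 symbol in the platform annotation, 532 several and 1564 none. For each of 9999 genes the probe set brightest on average over the 7 arrays was used. High signal in 1 group alone could thus decide the choice.

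Differences were tested with limma 3.58.1 in R 4.3.3 (lmFit and eBayes, two-sided, Benjamini-Hochberg over 9999 genes, threshold 0.05), and the procedure was tested on simulated data. The simulated arrays were independent, without knockout pairs, so that test does not cover the pairing seen in the real arrays. Intervals are 95%. The members and lists were chosen with earlier results of these data known. Genes given with all array values were, per role, up to 3 called members with the largest non-overlapping difference and the brightest member. Polr1a, Polr1b, Ncl, Npm1, Fbl, Nop56, Nop58, Dkc1, Pes1 and Bop1 were added to these. For Fbl, Nop58 and Nhp2 the array values are shown only in the plot of single arrays. Other called members were named with their differences, and array values of any other gene were added after they had been seen. Of the outside lists, the called gene with the largest difference each way was named. Alternatives were quantile normalization, median centring, a filter on dim genes, other variance models, means of probe sets, the replicate block and leaving out arrays.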

Additional observations from a re-analysis of the deposited data

Results flagged for a closer look

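Of the 34 genes checked for an array far from the others of its group, 1 had one. Nop53 read 10.66 in knockout replicate 3, against 10.76 in the nearest other knockout array. That gap was 0.924 of the group's whole range of 0.101, above Dixon's 95% limit for 4 arrays. Chance alone flags about 5% of groups, and Nop53 was not called in the comparison.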

How the results depend on the processing

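Quantile normalization, median centring, trended or unmoderated variances and array weights left 20 to 24 members higher and 2 lower. Fewer were lower with dim genes left out (1 of 47 members tested), with the mean of each knockout pair (1) and with the replicate block (1). The replicate numbers did not pair the arrays (correlations 0.12, -0.09 and 0.11); that block gave 18 calls and a median of 0.14. Averaging a gene's probe sets gave 17 higher, 4 lower and a median of 0.085, with reversed differences for Wdr12 (-0.25, adjusted p = 0.0160), Nop16 (-0.16), Ncl (-0.062) and Nhp2 (-0.053). Leaving out single arrays gave 14 to 22 calls, 13 to 20 higher, 1 to 2 lower, and medians of 0.13 to 0.17. The lowest counts were without wild type replicate 2, where the share of all genes called was also lowest, at 28.8%. Knockout pairs and the wild type group as random blocks gave 4 calls, 4 higher and 0 lower. The mean of each knockout pair gave 17 calls, 16 of them higher. Without knockout replicates 1 and 2 there were 35 calls, 5 of them lower, while 57.0% of all genes were called. Without replicates 3 and 4 there were 32 calls, 5 of them lower, with a median of 0.13, while 68.1% of all genes were called. The cause was not tested.

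Small differences changed sign. Nhp2 did so under quantile normalization (-0.0021), the replicate block (-0.038) and without knockout replicates 3 and 4 (-0.048), and ranged from -0.038 to 0.048 with single arrays left out. Nop58 did so under the block (-0.028) and without knockout replicates 3 and 4 (-0.11), and ranged from -0.040 to 0.060 with single arrays left out. Pes1 did so without knockout replicates 1 and 2 (-0.079), and ranged from -0.00079 to 0.10 with single arrays left out. Polr1d (-0.021, without replicates 1 and 2) and Fbl (-0.012, without replicates 3 and 4) did so once. None of these 5 genes was called with all arrays, but Pes1 and Polr1d were called without knockout replicates 3 and 4. The 4 fits built on the knockout pairs were chosen after seeing the data. Dim signals cannot be told from background here.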

Other observations

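The 44 promoter windows were also searched on both strands for other motifs. The ETS-family sequence CCGGAAGT was in 9 of 44 (20.5%), against 10.1% of the 8208 measured genes with a window. The sequence AATCACNGC, part of the known Gfi1 consensus, was in 0 of 44, against 1.27% of measured genes, and the shorter AAATCA, which overlaps it in that consensus, was in 5 of 44 (11.4%), against 9.81%. No match says only that these letters are not in these windows.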
